A study of Mus musculus with 4 samples.

Results

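The genes described are 10 subunits of cytokine receptors, Il7r, Il2ra, Il2rb, Il2rg, Il4ra, Il6ra, Il10ra, Il18r1, Il18rap and Il21r, of the 31053 genes counted. They were chosen by name, with earlier results of these data known. Each was followed in 4 single-cell RNA libraries of sorted T cells, taken from meninges or choroid plexus of female C57BL/6 mice, either young (10 weeks) or aged (18 months), and sorted with antibodies to CD3, CD4 and CD8. Per the study each library pooled 5 mice, and it was made with a kit that reads the 5′ end of transcripts. With 1 library per group there is no replicate of any condition, so no p-value is given, and intervals are exact 95% Poisson intervals on summed UMIs (unique molecular identifiers, 1 per captured transcript) or exact Clopper-Pearson intervals on shares of cells, which cover counting error only and not the spread between mice. Age also cannot be told apart from the library. Where 4 values follow each other, the meninges and choroid plexus of young mice come first and those of aged mice second.

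Cytokine receptors are built from subunits that are shared between receptors. Il2rg, the common gamma chain, pairs with Il7r for interleukin 7, with Il4ra for interleukin 4, with Il21r for interleukin 21, and with Il2rb for interleukins 2 and 15, where Il2ra adds high affinity for interleukin 2. These chains signal through Jak kinases and Stat factors. Il7r is known for the survival of naive and memory T cells, Il2ra marks regulatory and activated T cells, and Il2rb marks memory and natural killer lineages. Il6ra binds interleukin 6 and signals through Il6st, Il10ra is the ligand-binding chain for interleukin 10, and Il18r1 and Il18rap together form the receptor for interleukin 18, which signals through Myd88 instead.

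T cells were barcodes with a UMI of Cd3d, Cd3e or Cd3g after filters on quality. CD4 T cells had UMIs of Cd4 but not of Cd8a or Cd8b1, CD8 T cells the reverse, and the class called neither held T cells with no UMI of the 3 genes. The 4 libraries held 605 to 1408 T cells, with 160 to 362 CD4, 160 to 473 CD8 and 269 to 735 neither cells, and median depths of 2079 to 3645 UMIs per cell in these classes. A cell of this last class may hold transcripts that were not captured, so it is no lineage. The study sorted CD4 and CD8 T cells, and whether such a cell is a CD4 or a CD8 T cell was not tested. Pairs of libraries shared 0 to 3 cell barcodes. All 3 Cd3 genes together stood at 2954 to 3660 CPM (the summed UMIs of a class scaled to one fixed total) in every profile. Since a Cd3 UMI was required of each cell, this level is no test of the T-cell label. UMIs of 4 B-cell genes (Cd79a, Cd79b, Ms4a1 and Ighm) were found in 41.9 to 51.2% of the cells of a young class and 14.6 to 36.5% of an aged one. Young meningeal CD4 and CD8 T cells and young choroid plexus CD8 and neither cells had no UMI of Cd79a or Ms4a1. Their shares thus rest on Cd79b and Ighm. UMIs of 4 haemoglobin genes were found in 16.9 to 23.5% of the cells of the aged meningeal classes and in at most 8.27% elsewhere. Below, cells left out for UMIs of other cell types had a UMI of a B-cell, haemoglobin, natural killer or gamma-delta receptor constant gene. All of them also had a Cd3 UMI, so this filter cannot tell cells of other types from T cells with such a UMI. It left out many cells. In meningeal CD4 T cells 202 of 435 young and 257 of 488 aged Il2rg UMIs remained.

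Levels are CPM, and a difference is the log2 ratio after adding 10 CPM to both sides, which understates the ratio of low genes. A difference is called past the rule of size when the higher side had at least 20 UMIs and the log2 ratio was at least 1 in either direction. Levels are compared between samples and not between genes. Fewer cells that express a gene and less RNA per cell cannot be told apart in a summed level.

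With age, the 10 subunits divided. Il6ra was lower in the aged library in all 6 pairs of tissue and class and past the rule in 6 of 6. Il4ra was lower in 6 of 6 and past the rule in 3. Il10ra, Il2ra, Il2rb and Il18r1 were higher in 6 of 6, past the rule in 4, 2, 2 and 3 pairs. Il18rap was past the rule in 1 pair, while Il2rg, Il7r and Il21r were past it in none. Over the 60 pairs of gene and comparison, 57 had enough UMIs, 12 were past the rule with the aged side higher and 9 with it lower. The classes of a tissue come from the same young and aged library, so the 6 pairs are not independent.

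Those counts are read against all genes tested. In the meninges 1 of 9 tested subunits was past the rule in CD4 T cells, where 6.12% of all tested genes were, 2 of 9 in CD8 T cells (5.06% of all genes) and 4 of 10 in neither cells (4.87%). In the choroid plexus 5 of 10 were past it in CD4 T cells (9.51%), 2 of 9 in CD8 T cells (3.84%) and 7 of 10 in neither cells (6.51%). The median log2 ratio of the tested subunits was 0.16, 0.19 and 0.25 in the meningeal CD4, CD8 and neither cells. The median of all tested genes there was 0.08, 0.04 and 0.05. In the choroid plexus the tested subunits had medians of 0.48, 0.16 and 0.59, beside 0.17, 0.18 and 0.14 for all tested genes. The members were not chosen at random, and earlier results of these data were known when they were chosen. These shares therefore describe the list only.

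**Figure D1:**
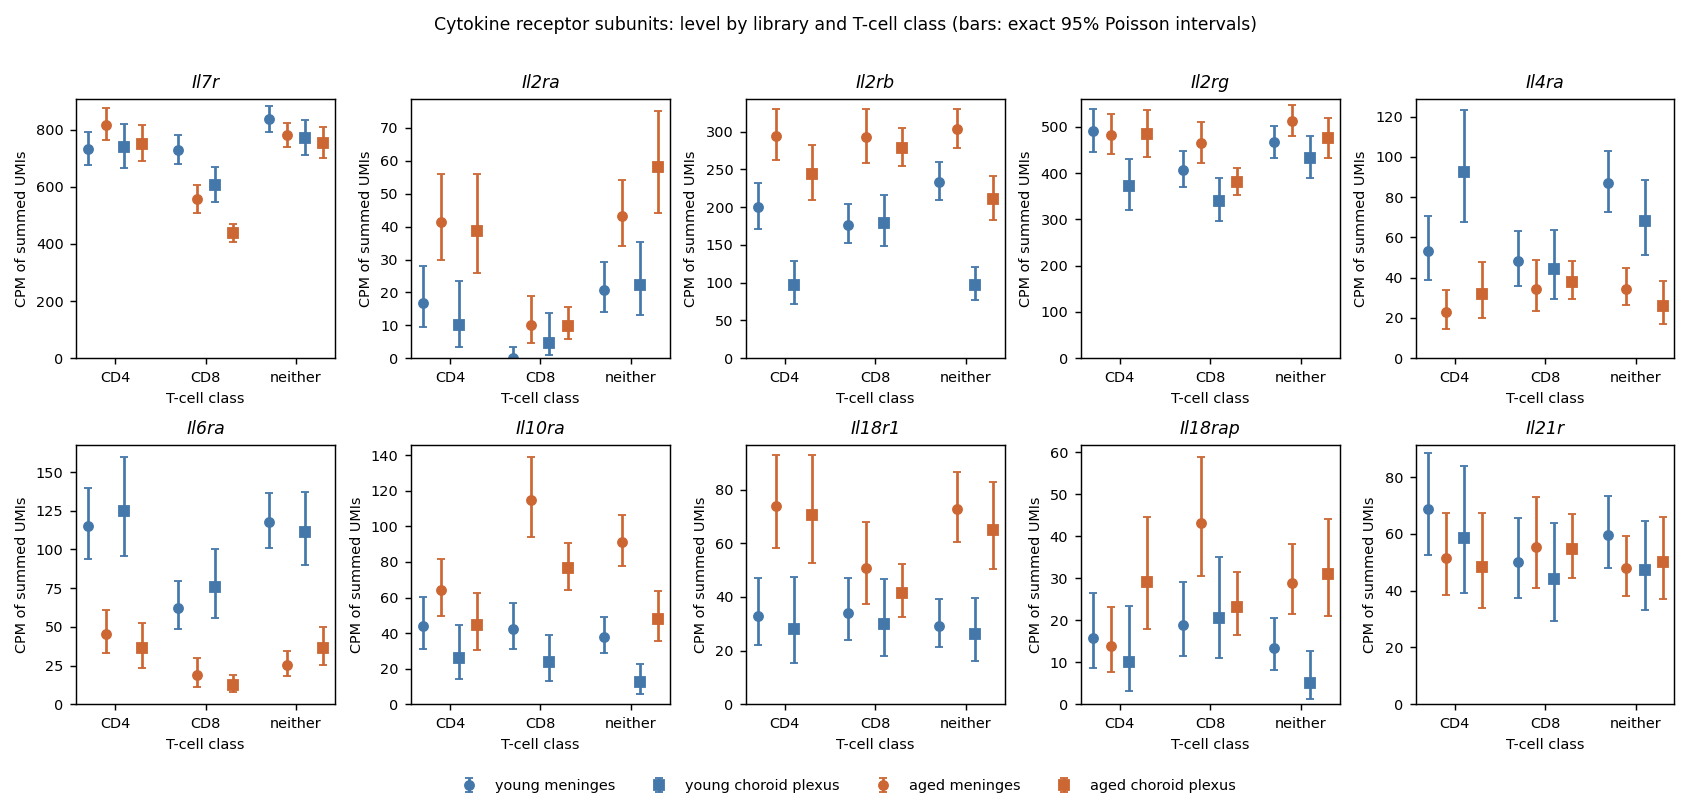
Level of each subunit in CPM (y axis, from 0, a scale of its own in each panel) by T-cell class (x axis), with young libraries in blue, aged in orange, circles for meninges and squares for choroid plexus, and bars for exact 95% Poisson intervals. Il6ra sits between 62.4 and 125 CPM in the young profiles and between 12.7 and 45.4 CPM in the aged ones, while Il2rg spans only 340 to 513 CPM over all 12.

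**Figure D2:**
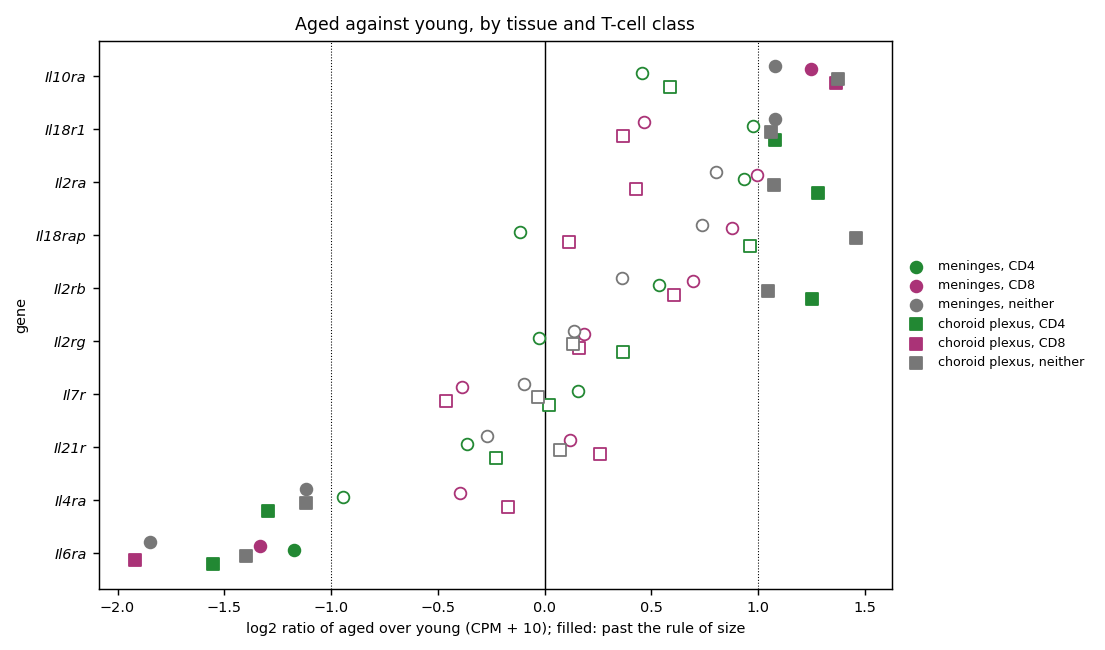
Log2 ratio of aged over young on CPM with 10 added (x axis) for the 10 subunits (y axis, ordered by median), with circles for meninges, squares for choroid plexus and colours for class. Filled symbols passed the rule of size, dotted lines mark a ratio of 1 in either direction, and Il6ra lies at -1.17 or less in all 6 comparisons.

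Il2rg, the shared gamma chain (chrX:101264378-101268255, minus strand, GRCm38), varied little across samples. Il2rg in CD4 T cells was at 491 and 372 CPM in the young meninges and choroid plexus and at 482 and 483 CPM in the aged ones. Il2rg in CD8 T cells was at 407 and 340 CPM when young and at 464 and 381 CPM when aged, and in neither cells at 466 and 433 CPM when young and 513 and 475 CPM when aged. The highest of the 12 levels was 1.51 times the lowest, and every neighbour in their order had an overlapping interval. The log2 ratios of aged over young ran from -0.03 to 0.37. Their intervals were apart in 1 of 6 pairs, CD4 T cells of the choroid plexus.

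Il7r, the interleukin 7 receptor alpha chain (chr15:9505788-9530176, minus strand), kept its level with age in CD4 and neither cells and stood lower in aged CD8 T cells. Il7r in CD4 T cells was at 732 and 739 CPM in the young meninges and choroid plexus and at 817 and 751 CPM in the aged ones. Il7r in neither cells was at 836 and 771 CPM when young and at 781 and 755 CPM when aged. In CD8 T cells it was at 728 (678 to 782) and 607 (548 to 671) CPM when young and at 556 (508 to 606) and 438 (407 to 470) CPM when aged. Those CD8 intervals did not overlap in either tissue, with log2 ratios of -0.38 and -0.46, which are short of the rule. The 3 lowest of its 12 levels were CD8 profiles, the aged choroid plexus lowest. T cells with a UMI of a gamma-delta receptor constant gene (Trdc or a Tcrg-C gene) made up 3.94 and 5% of the young CD8 class and 18.9 and 32.8% of the aged one. Over all classes, such cells had 583 CPM of Il7r in the aged meninges and 353 CPM in the aged choroid plexus, against 752 and 644 CPM in the other T cells (log2 -0.36 and -0.85). Of these gated cells 53 of 86 and 155 of 185 were CD8 T cells, while the other T cells were of all classes. The contrast is therefore not one within CD8 T cells. With all cells left out that had UMIs of these receptor genes or of B-cell, natural killer or haemoglobin genes, the CD8 ratios were -0.70 and -0.38. The part of cells with UMIs of the gamma-delta receptor genes in the lower Il7r of aged CD8 T cells was not tested.

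The promoter of Il7r is shown because 1 of the 3 motifs searched lies in it and because interleukin 7 itself signals through Stat5. It is the RefSeq window of 250 bases before to 50 after the start (GRCm38.p6, chr15:9529827-9530126, minus strand, 5′ to 3′), and capitals mark TTCNNNGAA, the paired half-sites that Stat factors bind, found at base 109 of the window:
Il7r: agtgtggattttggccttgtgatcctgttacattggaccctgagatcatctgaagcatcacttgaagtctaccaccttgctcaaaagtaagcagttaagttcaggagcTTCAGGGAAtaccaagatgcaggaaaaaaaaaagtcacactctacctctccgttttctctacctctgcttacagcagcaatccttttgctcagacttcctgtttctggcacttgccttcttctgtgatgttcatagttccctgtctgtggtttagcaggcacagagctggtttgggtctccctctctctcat
This motif, whose letters are the same on both strands, was in 8.3% of the 32851 promoters of the table. Of the 10 subunits, 8 matched the table, all but Il2rb and Il10ra. The other 2 motifs were searched on both strands, GTAAACA of Foxo factors (3.65% of promoters), found once, in the Il21r window, and AGGTGTGA of T-box factors (1.28%), found in none of the 8. A match is only a match of letters.

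Il2ra, the chain that gives the interleukin 2 receptor its high affinity (chr2:11642807-11693193, plus strand), was low in all profiles and stood higher in the aged CD4 and neither cells. Il2ra in CD4 T cells was at 16.9 and 10.1 CPM in the young meninges and choroid plexus, from 15 and 5 UMIs, and at 41.5 and 38.8 CPM in the aged ones, from 42 and 28 UMIs. Il2ra in neither cells was at 20.6 and 22.3 CPM when young and at 43.3 and 58.1 CPM when aged. The log2 ratios were 0.94 and 1.28 in CD4 T cells and 0.80 and 1.08 in neither cells, so that both choroid plexus pairs passed the rule. Without cells that had UMIs of other cell types, they were 0.46 and 1.56 in CD4 T cells and 0.69 and 1.17 in neither cells. The CD4 pairs then rested on 17 aged against 8 young and 12 against 1 UMIs. Only the choroid plexus neither pair still passed the rule, and the meningeal CD4 intervals overlapped. CD8 T cells had 0 and 3 UMIs when young (the interval of the count of 0 ends at 3.49 CPM) and 9 and 17 UMIs when aged, all under the minimum of 20. After each cell was thinned to 1000 UMIs, Il2ra was detected in 1.20, 0.50, 3.28 and 2.42% of the T cells of the 4 libraries (2.28, 2.81, 6.96 and 7.50% without thinning).

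Il2ra followed Foxp3, the transcription factor of regulatory T cells, in the aged libraries. Foxp3-positive T cells numbered 33, 12, 141 and 72, too few to compare in the young choroid plexus. They had 93.4 (67.9 to 125) CPM of Il2ra in the aged meninges and 132 (96.3 to 177) CPM in the aged choroid plexus, against 25.6 (20.4 to 31.6) and 23.8 (18.9 to 29.7) CPM in the other T cells (log2 1.54 and 2.07). In the young meninges the values were 46.7 and 11.8 CPM, but from only 6 UMIs in the Foxp3-positive cells. Most Il2ra UMIs lay outside the gate, 85 of 129 in the aged meninges and 79 of 124 in the aged choroid plexus. Over the Foxp3 comparisons 4 of 22 tested subunit pairs passed the rule, where 6.84% of all gene pairs did. The other 2 of the 4 were Il18r1 and Il18rap in the young meninges, with 0 UMIs each in the 33 Foxp3-positive cells and 111 and 55 UMIs in the rest, where the intervals overlapped. In the aged libraries Il18r1 was at 93.4 against 64.7 and 85.1 against 51.3 CPM, with the Foxp3-positive cells higher and short of the rule.

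Il2rb, the signalling beta chain for interleukins 2 and 15 (chr15:78479256-78495271, minus strand), was higher in every aged profile than in its young counterpart. Il2rb in CD4 T cells was at 200 (171 to 231) and 96.6 (71.2 to 128) CPM in the young meninges and choroid plexus and at 294 (262 to 330) and 244 (209 to 283) CPM in the aged ones. Il2rb in CD8 T cells was at 177 and 180 CPM when young and at 293 and 279 CPM when aged. In neither cells it was at 234 and 96.7 CPM when young and at 304 and 210 CPM when aged. The intervals were apart in 6 of 6 pairs, with log2 ratios of 0.54, 0.70 and 0.36 in meningeal CD4, CD8 and neither cells and 1.25, 0.61 and 1.05 in the choroid plexus. Without cells that had UMIs of other cell types the 6 ratios ran from 0.44 to 1.38.

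How Il2rb was spread over cells also differed. In the young meninges 26.0% of CD4 T cells had an Il2rb UMI, with 2.68 UMIs in each such cell, and in the aged meninges 50.3% had one, with 1.64 UMIs in each. The choroid plexus went from 13.1% of CD4 T cells with 2.29 UMIs to 47.0% with 1.63 UMIs. The UMIs per positive cell were not compared at equal depth, and young CD4 T cells were deeper, with medians of 3215 and 2857 UMIs against 2329 and 2624. Thinned to 1000 UMIs, the shares were 14.6 and 6.92% when young and 27.5 and 23.1% when aged, so the difference in share stood at equal depth. CD4 T cells with a Ccr7 UMI and none of Cxcr3 or Foxp3, which should hold little Il2rb, had it in 5.76 and 1.06% of the thinned cells when young, and in 4 of 24 and 2 of 15 cells when aged.

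Between tissues, Il2rb in young neither cells was lower in the choroid plexus than in the meninges by 1.19 on the log2 scale, and Il10ra was lower there by 1.10. Of the 53 tested pairs between choroid plexus and meninges no other than these 2 passed the rule, where 2.33% of all gene pairs did. Il2rb in CD8 T cells had log2 ratios of choroid plexus over meninges of 0.02 when young and -0.07 when aged, with overlapping intervals. UMIs of Klrb1c, 1 of 4 natural killer genes, were in 5.41% of young meningeal and 0.743% of young choroid plexus neither cells, while Ncr1, Klra8 and Klra4 were at 0 in both. The part of these cells in the Il2rb pair was not tested. T cells of the young meninges with a UMI of Il4, Il5 or Il13 (25 cells, 17 of them neither) had 760 CPM of Il2rb, against 190 CPM in the other T cells. When cells with UMIs of other cell types were left out, young neither cells had 153 CPM of Il2rb in the meninges and 92.0 CPM in the choroid plexus. Their Il10ra was then at 30.2 and 12.8 CPM, and both pairs were short of the rule.

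Il4ra, the interleukin 4 receptor alpha chain (chr7:125552120-125579474, plus strand), was lower in the aged CD4 and neither cells. Il4ra in CD4 T cells was at 53.0 (39.0 to 70.5) and 92.6 (67.8 to 124) CPM in the young meninges and choroid plexus and at 22.7 (14.4 to 34.1) and 31.9 (20.2 to 47.8) CPM in the aged ones. Il4ra in neither cells was at 87.0 (72.7 to 103) and 68.2 (51.4 to 88.7) CPM when young and at 34.6 (26.4 to 44.6) and 26.1 (17.02 to 38.2) CPM when aged. In CD8 T cells it was at 48.2 and 44.1 CPM when young and at 34.2 and 38.0 CPM when aged, with overlapping intervals. The log2 ratios were -0.95 and -1.29 in CD4, -1.12 and -1.12 in neither and -0.40 and -0.17 in CD8 T cells. Il4ra is also a gene of B cells. UMIs of the B-cell genes were in a smaller share of aged than of young cells, though several young classes held no UMI of Cd79a or Ms4a1. Without the cells that had UMIs of B-cell genes or of genes of other cell types, the log2 ratios were -1.13 and -1.39 in CD4, -1.25 and -1.28 in neither and -0.07 and -0.08 in CD8 T cells. This filter does not single out B cells, so the part of B cells in these ratios was not tested. The difference between the classes was not tested.

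Il21r, the interleukin 21 receptor chain and the neighbour of Il4ra (chr7:125603429-125633570, plus strand), lay close to one level throughout. The 2 genes are 23954 bases apart with no annotated gene between them. Il21r in CD4 T cells was at 68.8 and 58.4 CPM in the young meninges and choroid plexus and at 51.4 and 48.5 CPM in the aged ones. Il21r in CD8 T cells was at 50.1 and 44.1 CPM when young and at 55.2 and 54.7 CPM when aged, and in neither cells at 59.7 and 47.1 CPM when young and 47.9 and 50.1 CPM when aged. No young and aged interval was apart, and the log2 ratios ran from -0.36 to 0.26. All neighbours in the order of its 12 levels overlapped.

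Il6ra, the ligand-binding chain for interleukin 6 (chr3:89864059-89913196, minus strand), had the lowest aged over young ratios of the 10. Il6ra in CD4 T cells was at 115 (93.8 to 140) and 125 (95.7 to 160) CPM in the young meninges and choroid plexus and at 45.4 (33.3 to 60.6) and 36.0 (23.5 to 52.8) CPM in the aged ones. Il6ra in CD8 T cells was at 62.4 (48.3 to 79.4) and 75.6 (55.8 to 100.3) CPM when young and at 18.8 (10.9 to 30.1) and 12.7 (7.94 to 19.2) CPM when aged. In neither cells it was at 118 and 112 CPM when young and at 25.4 and 36.1 CPM when aged. All 6 young levels were above all 6 aged levels, and the intervals of each pair were apart. The log2 ratios were -1.17, -1.33 and -1.85 in meningeal CD4, CD8 and neither cells and -1.55, -1.92 and -1.40 in the choroid plexus. For meningeal CD4 T cells the ratio was -0.55 when cells were thinned to 1000 UMIs and -0.52 when 2 UMIs of Cd4 or Cd8 genes were required, both short of the rule. Without the cells that had UMIs of other cell types, the 6 ratios ran from -2.11 to -1.61.

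The share of T cells with an Il6ra UMI, at 1000 UMIs per cell, was 9.31% (7.58 to 11.3) and 11.4% (8.92 to 14.2) in the young meninges and choroid plexus and 3.21% (2.34 to 4.29) and 2.52% (1.66 to 3.64) in the aged ones. Without thinning it was 27.2, 26.6, 6.82 and 7.40%. CD8 T cells with Nkg7 and without Ccr7, which served as the background, had it in 1.59, 2.94, 0.43 and 0.50% of thinned cells. These cells made up most of the aged CD8 class, so they give no background for that class as a whole.

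Il6st, the chain through which Il6ra signals, was lower in the same direction. It went from 46.4 to 13.3 CPM in meningeal CD8 T cells and from 39.4 to 11.5 CPM in those of the choroid plexus, with log2 ratios of -1.28 and -1.20. In neither cells the ratios were -1.38 and -1.12, and in CD4 T cells -0.51 and -0.79, short of the rule. So the aged CD8 and neither cells of both tissues held less of both chains.

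The promoters of Il6ra and Il4ra are shown because these 2 genes were the ones that were lower in all 6 pairs. None of the 3 motifs was in either window, so they have no capitals. G and C made up 66% of the Il6ra window (chr3:89913147-89913446, minus strand) and 62% of the Il4ra window (chr7:125552021-125552320, plus strand), against 42.3 to 57% in the windows of the other 6 matched genes. This share was not set against all promoters, and Il2rb and Il10ra have no window. Any link of it with age was not tested. Both windows follow (RefSeq, GRCm38.p6, 5′ to 3′):
Il6ra: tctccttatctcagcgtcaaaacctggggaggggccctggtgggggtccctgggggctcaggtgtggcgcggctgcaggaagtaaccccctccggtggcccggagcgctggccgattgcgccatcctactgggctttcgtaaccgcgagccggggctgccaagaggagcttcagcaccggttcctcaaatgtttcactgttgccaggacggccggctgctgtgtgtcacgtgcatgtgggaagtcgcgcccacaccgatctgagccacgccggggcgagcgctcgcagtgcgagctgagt
Il4ra: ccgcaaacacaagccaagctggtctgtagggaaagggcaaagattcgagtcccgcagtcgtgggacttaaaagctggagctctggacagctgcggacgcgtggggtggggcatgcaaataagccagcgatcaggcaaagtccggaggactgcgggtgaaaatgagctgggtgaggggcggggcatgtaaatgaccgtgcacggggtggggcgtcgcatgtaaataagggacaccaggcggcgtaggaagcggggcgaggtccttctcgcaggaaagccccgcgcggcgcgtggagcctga

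Il10ra, the ligand-binding chain for interleukin 10 (chr9:45253837-45269149, minus strand), was higher in aged CD8 and neither cells. Il10ra in CD8 T cells was at 42.6 (31.1 to 57.0) and 23.6 (13.2 to 39.0) CPM in the young meninges and choroid plexus and at 115 (93.9 to 139) and 76.6 (64.2 to 90.8) CPM in the aged ones. Il10ra in neither cells was at 37.8 and 12.4 CPM when young and at 91.2 and 48.1 CPM when aged. In CD4 T cells it was at 44.0 and 26.2 CPM when young and at 64.2 and 44.3 CPM when aged, and these intervals overlapped. The log2 ratios were 1.25 and 1.36 in CD8, 1.08 and 1.38 in neither and 0.46 and 0.59 in CD4 T cells. The highest of its 12 levels was that of aged meningeal CD8 T cells. With thinning, Il10ra was detected in 2.36 and 2.55% of young and 10.9 and 9.44% of aged CD8 T cells (12.6, 8.12, 26.3 and 22.8% without it).

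The receptor for interleukin 18 is made of Il18r1, which binds the ligand (chr1:40465552-40500854, plus strand), and Il18rap, its accessory chain (chr1:40515362-40551705, plus strand). The genes are neighbours, 14507 bases apart, with no annotated gene between them. Il18r1 in CD4 T cells was at 32.7 and 28.2 CPM in the young meninges and choroid plexus and at 74.1 and 70.6 CPM in the aged ones. Il18r1 in neither cells was at 29.2 and 26.0 CPM when young and at 72.7 and 65.1 CPM when aged. In CD8 T cells it was at 34.1 and 29.9 CPM when young and at 50.8 and 41.5 CPM when aged, with overlapping intervals. The log2 ratios were 0.98 and 1.08 in CD4, 1.08 and 1.06 in neither and 0.47 and 0.37 in CD8 T cells, so the young levels were alike in all classes and the CD4 and neither cells stood further from them. CD4 T cells with Ccr7 and without Cxcr3 or Foxp3, the background for Il18r1, had 28.2 and 10.3 CPM when young, from 13 and 3 UMIs. When aged they had 14.3 and 116 CPM, from 1 and 5 UMIs in 25 and 15 cells. Whether the young levels lie above background was not tested.

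Il18rap was the rarer in UMIs, with 4 to 50 per profile. Il18rap in CD8 T cells was at 18.9 and 20.5 CPM in the young meninges and choroid plexus and at 43.1 and 23.1 CPM in the aged ones. Il18rap in CD4 T cells was at 15.8 and 10.1 CPM when young and at 13.8 and 29.1 CPM when aged. In neither cells it was at 13.3 and 4.96 CPM when young and at 28.9 and 31.1 CPM when aged. The choroid plexus neither pair, with 4 and 31 UMIs, was the 1 past the rule (log2 1.46). In cells thinned to 1000 UMIs, Il18rap was found in 0 of 32, 2 of 23, 3 of 75 and 3 of 56 cells with an Il18r1 UMI and in 1.03, 0.69, 3.17 and 3.15% of the cells without one in the 4 libraries. The intervals of each pair overlapped, so with these few cells a link between the 2 chains in single cells was not detectable.

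The RefSeq table lists 3 starts for Il18r1. The window of the third is shown because it holds the Stat motif 2 times, at bases 32 and 99, as marked in capitals (GRCm38.p6, chr1:40465756-40466055, plus strand, 5′ to 3′), whereas the other 2 windows and that of Il18rap hold none of the 3 motifs:
Il18r1: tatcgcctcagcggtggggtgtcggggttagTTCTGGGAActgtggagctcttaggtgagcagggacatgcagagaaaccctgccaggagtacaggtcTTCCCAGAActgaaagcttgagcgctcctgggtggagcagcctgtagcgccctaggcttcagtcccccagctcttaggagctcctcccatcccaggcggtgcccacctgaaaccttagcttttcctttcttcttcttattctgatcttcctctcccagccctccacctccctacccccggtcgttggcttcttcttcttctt

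Between CD8 and CD4 T cells of one library, few subunits differed past the rule. None of 9 tested subunits did in the young meninges, where 2.84% of all tested genes did, and none of 6 in the young choroid plexus, where 3.62% did. In the aged meninges 2 of 10 did (4.54% of all genes), Il2ra, lower in CD8 T cells (log2 -1.37), and Il18rap, higher in them (1.16). In the aged choroid plexus 2 of 10 did (3.92%), Il2ra (-1.30) and Il6ra (-1.02), both lower in CD8 T cells. Il6ra was lower in CD8 than in CD4 T cells of all 4 libraries, by 0.79, 0.65, 0.95 and 1.02 on the log2 scale. Il7r was lower in CD8 T cells by 0.55 and 0.76 in the aged meninges and choroid plexus, beside -0.01 and -0.28 in the young ones, and Il10ra was higher by 0.75 and 0.67 in the aged ones, beside -0.04 and -0.10 in the young ones. Whether these contrasts differ with age was not tested. Between neither and CD4 T cells 0 of 35 tested pairs were past the rule, close to the 0.801% of all gene pairs. In the young meninges the intervals were apart for Il4ra, at 87.0 CPM in neither and 53.0 CPM in CD4 T cells, and for Il7r, at 836 and 732 CPM.

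The subunits were also compared between states of the cells. A gate here is a UMI of a named gene, and gated cells were compared with the other T cells of the same library. Over 9 gates 57 subunit pairs passed the rule. Of all gene pairs, 1.73% (Tnfsf8 gate) to 15.7% (type 2 cytokine gate) passed it in a gate, and the count of each gate is given beside its own share. The gated cells were mostly deeper, with medians of 2344.5 to 4843 UMIs against 2060 to 3199.5 in the other T cells.

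Cells with a UMI of Ccr7, the chemokine receptor of naive and central memory T cells, numbered 601 of 1007 and 331 of 605 T cells in the young meninges and choroid plexus and 134 of 1408 and 108 of 1094 in the aged ones. Il6ra was higher in them in all 4 libraries, at 127 against 57.5, 142 against 58.1, 85.6 against 22.5 and 58.5 against 20.4 CPM (log2 1.03, 1.16, 1.56 and 1.17). Il7r was also higher, at 918 against 547, 886 against 480, 1014 against 702 and 769 against 554 CPM, short of the rule. Il2rb was lower in the Ccr7-positive cells, at 86.5 against 392 and 55.4 against 208 CPM in the young libraries (log2 -2.06 and -1.74). In the aged ones it was at 162 against 314 and 201 against 260 CPM, short of the rule. Over this gate 11 of 35 tested subunit pairs passed it, where 3.47% of all gene pairs did. Of these 4 were higher and 7 lower in the Ccr7-positive cells. The lower ones numbered 3 and 1 in the young and 2 and 1 in the aged meninges and choroid plexus, so subunits other than Il2rb were among them.

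Cells with a UMI of Cxcr3, a chemokine receptor of effector and memory T cells, formed the counterpart in the young libraries. They had 568 and 326 CPM of Il2rb in the young meninges and choroid plexus, against 115 and 74.3 CPM in the other T cells (log2 2.21 and 1.99). Their Il7r was at 394 and 326 CPM, against 868 and 798 CPM (log2 -1.12 and -1.27), and their Il6ra at 29.2 and 43.6 CPM, against 118 and 119 CPM (log2 -1.70 and -1.27). In the aged libraries no subunit passed the rule in this gate, with Il2rb at 321 against 275 and 300 against 217 CPM. Over the gate 9 of 36 tested pairs passed, beside 2.85% of all gene pairs. Whether the contrast between Cxcr3-positive and other cells differs with age was not tested.

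Il18rap lay mostly in Nkg7-positive cells in the young libraries. Nkg7, a gene of cytotoxic granules, was found in 320, 187, 699 and 638 T cells. In the young libraries 54 of 55 and 20 of 24 Il18rap UMIs lay in Nkg7-positive cells (log2 2.25 and 1.36). In the aged libraries Il18rap was at 39.3 against 14.7 and 27.6 against 23.4 CPM, short of the rule, and no subunit was higher in Nkg7-positive cells past it. Il2rb was at 393 against 90.7 and 254 against 32.4 CPM in those of the young libraries, and Il6ra was past the rule on the low side in all 4 libraries, with log2 ratios from -1.59 to -1.07. This gate had 11 of 38 tested pairs past the rule, beside 3.4% of all gene pairs. Cells with a UMI of Gzmk, a granzyme, had 10 of 38 (5.01%), 7 of them in the young meninges, where 53 such cells had 80.0 CPM of Il18rap against 10.7 CPM and 2 UMIs of Il6ra of 351. In the other 3 libraries Il18rap was not higher with Gzmk, at 11.5 against 11.8, 27.3 against 28.6 and 20.1 against 29.2 CPM. No Il18rap UMI was found in the 139 and 95 young CD4 T cells with Ccr7 and without Cxcr3 or Foxp3.

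The type 2 cytokine gate was small. Cells with a UMI of Il4, Il5 or Il13, 25 to 34 in the 3 libraries compared, had 5 of 20 tested pairs past the rule, where 15.7% of all gene pairs passed it, and Il6ra was at 19.2 and 8.85 CPM in those of the young and aged meninges, against 102 and 30.7 CPM, from 2 UMIs and 1 UMI.

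Of the remaining gates, cycling cells, with a UMI of Mki67 or Top2a, had 6 of 31 tested pairs past the rule (7.5% of all gene pairs), all lower. Il7r accounted for 3 of them, at 384 against 799 CPM in the young meninges, 281 against 748 CPM in the young choroid plexus and 257 against 632 CPM in the aged choroid plexus. The gamma-delta gate had 1 of 24 (5.13%), Il4ra in the aged meninges, from 3 UMIs in the gated cells. Cells with a UMI of Tnfsf8, which encodes CD153, had 0 of 36 (1.73%).

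**Figure D3:**
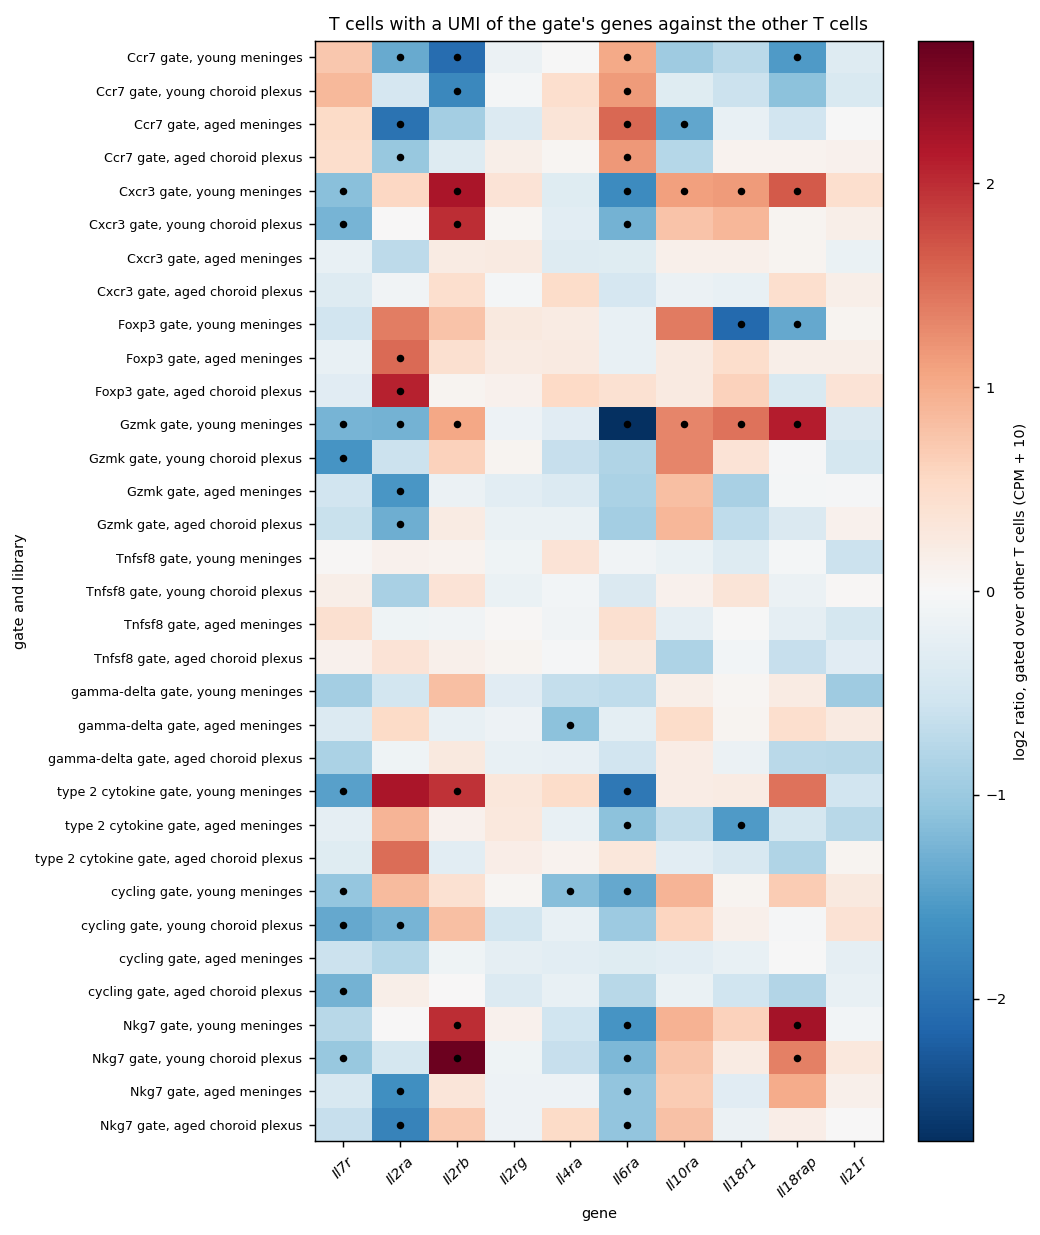
Log2 ratio of gated over other T cells (colour, red higher and blue lower) for the 10 subunits (x axis) in each gate and library with at least 20 cells on both sides (y axis), on CPM with 10 added. Dots mark the 57 pairs past the rule of size, which 1.73 to 15.7% of all gene pairs passed in a gate. Il6ra is red in the 4 rows of the Ccr7 gate and blue in the 4 rows of the Nkg7 gate.

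Since the aged libraries held fewer cells with a Ccr7 UMI, the aged and young levels were set side by side in the cells without a Ccr7 UMI. There 10 of the 60 pairs passed the rule, 6 higher and 4 lower. Of all tested genes, 4.11 to 11.5% passed it in each comparison. The 60 pairs include some with too few UMIs to be called, such as Il2ra in meningeal CD8 T cells, with 9 aged and 0 young UMIs. The share of all genes leaves such pairs out, so it cannot be set directly against the 10 of 60. Il6ra was still lower in 6 of 6, with log2 ratios from -1.17 to -0.80, and 3 of the 6 passed the rule. The pairs in meningeal CD8 (-1.17) and choroid plexus CD4 T cells (-1.16) had the size but only 14 and 13 UMIs on the young side. Il4ra was lower in 5 of 6. Il10ra in CD8 T cells was at 57.2 and 27.8 CPM when young and at 130 and 82.3 CPM when aged (log2 1.06 and 1.29). Its log2 ratios in the meninges and choroid plexus were -0.03 and 0.12 in CD4 T cells and 0.60 and 1.32 in neither cells. Il2ra was higher in 6 of 6 and past the rule in 2, with a median log2 ratio of 0.84, beside 0.97 in whole classes.

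Il18r1 passed the rule in 0 of 6 pairs in these cells, with a median log2 ratio of 0.49, beside 3 of 6 and 1.02 in whole classes. Its ratio in meningeal CD8 T cells was -0.21. Il18rap passed in 1 of 6, with a median of -0.04, beside 0.81 in whole classes, and Il4ra passed in 1 of 6, beside 3. The choroid plexus CD4 pair of Il4ra, at -1.02, had only 14 UMIs on the young side. Il2rb had log2 ratios of -0.16, 0.46 and -0.65 in meningeal CD4, CD8 and neither cells and 0.21, 0.24 and 0.30 in the choroid plexus, with none past the rule and a median of 0.23, beside 0.65 in all cells. Young meningeal neither cells without Ccr7 had 525 (470 to 585) CPM of Il2rb and aged ones 330 (302 to 360) CPM. Il7r was higher in the aged cells in 6 of 6, with log2 ratios of 0.08 to 0.58 and none past the rule. The largest ratio was in meningeal CD4 T cells, at 523 (453 to 600) CPM in young and 785 (729 to 845) CPM in aged ones. In CD8 T cells the young and aged intervals of Il7r overlapped in both tissues. A cell without a captured Ccr7 UMI can still express the gene, so the subset is not free of such cells.

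**Figure D4:**
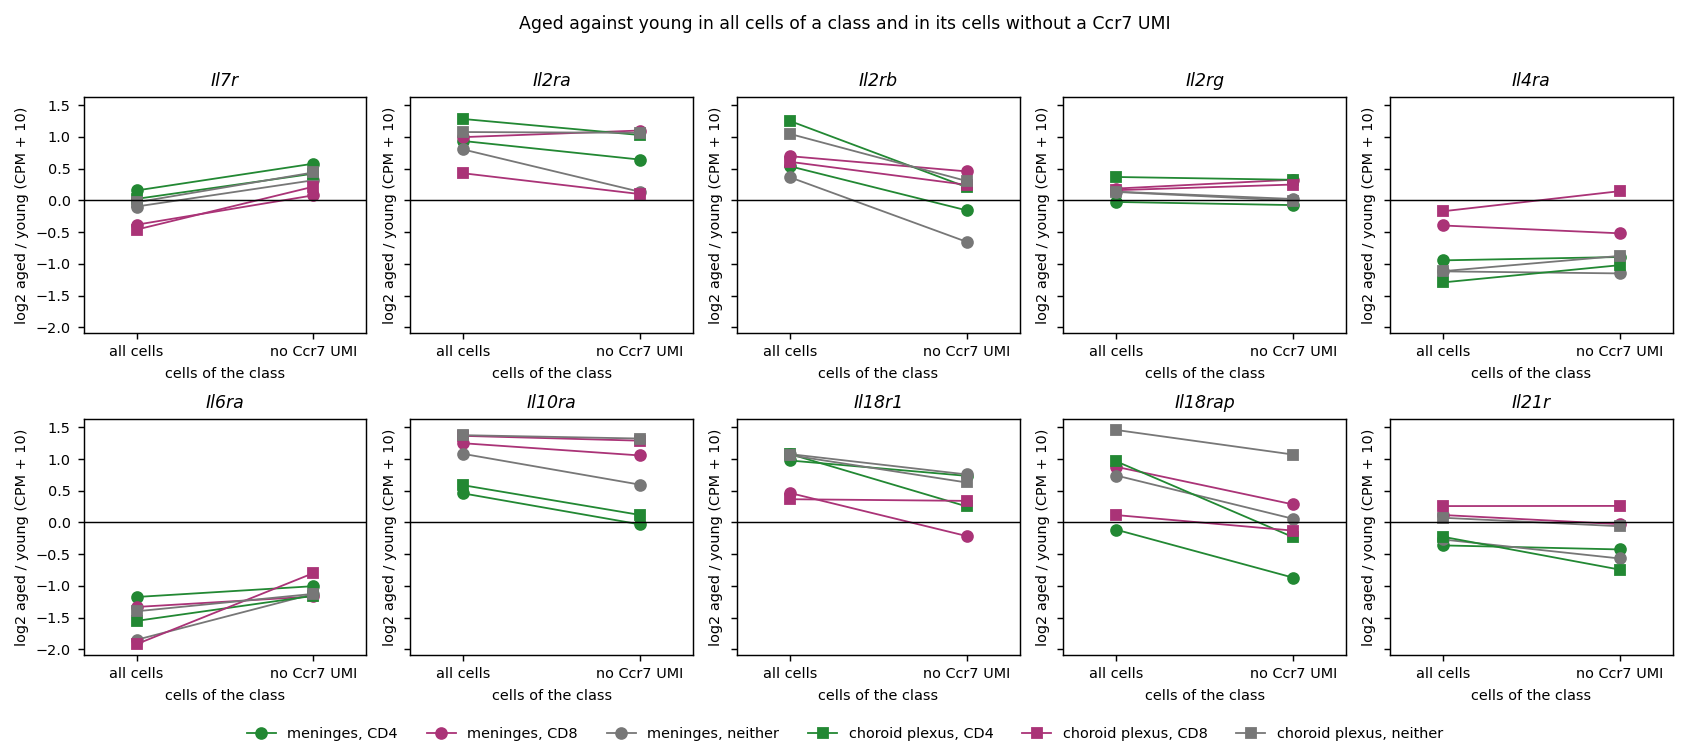
Log2 ratio of aged over young on CPM with 10 added (y axis) for each subunit in all cells of a class and in its cells without a Ccr7 UMI (x axis), with lines joining the same tissue and class. The 6 Il6ra lines end between -1.17 and -0.80, the Il7r lines end above 0, and those of Il2rb end between -0.65 and 0.46.

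Pairs of subunits were also followed within cells thinned to 1000 UMIs. Il2rb was found in 10.8% (8.16 to 14.0) of young meningeal T cells with an Il7r UMI and in 18.2% (15.0 to 21.7) of those without one, and in 4.78% (2.57 to 8.03) and 13.8% (10.2 to 17.98) in the young choroid plexus. The aged shares were 22.6 and 28.3% for meninges and 21.5 and 22.5% for choroid plexus, with overlapping intervals. The intervals were thus apart in the young libraries, and whether this differs with age was not tested. Il2rg was found in 29.1, 33.5, 37.1 and 37.4% of cells with Il7r and in 36.8, 32.4, 39.8 and 33.7% of those without, and these intervals overlapped in all 4 libraries, as did those for Il2rg with and without Il2rb, Il21r or Il4ra.

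Other genes of these pathways were taken from 3 lists. Of 43 other cytokine receptor genes, 13 to 17 had enough UMIs in a given aged against young comparison, 0 to 3 were past the rule on the high side and 1 to 3 on the low side. Of 21 genes of the signal chain and its targets, 18 to 21 were tested, 0 to 3 were higher and 0 lower. Of 11 ligand genes, 1 or 2 were tested. Past the rule in both tissues were Il15ra, the interleukin 15 receptor alpha chain, in CD8 T cells (log2 1.18 and 1.59 for meninges and choroid plexus), Il1rl1, the receptor for interleukin 33, in CD4 T cells (7 and 30 UMIs in the young and aged meninges, 0 and 38 in the choroid plexus), and Il2 in CD4 T cells (1.17 and 1.02). The feedback genes Socs1 (1.01 and 1.82) and Socs2 (1.11 and 1.89) were past it in CD4 T cells, and Cish, a target of Stat5, in neither cells (1.55 and 1.43). Ifngr2, a chain of the interferon gamma receptor, was lower in CD4 T cells of both tissues, with 46 and 12 UMIs in the young and aged meninges and 22 and 11 in the choroid plexus, and in meningeal CD8 T cells (log2 -2.25). Il1r2, a decoy receptor for interleukin 1, was past it over all T cells, with 7 and 65 UMIs in the young and aged meninges and 0 and 92 in the choroid plexus.

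Over the 12 profiles of library and class, which share libraries and are not independent, some genes followed a subunit closely. The measure was Pearson's r of log2(CPM + 10) among 3382 genes that reached 50 CPM in some profile, and the highest values over so many genes are high in any case. Il6ra was followed by Crlf3, Igfbp4 and Dgka (r = 0.97 for each) and Il18r1 by Lag3 (0.97), Lztfl1 (0.96) and Bhlhe40 (0.95). Il2rb was followed by 2010111I01Rik (0.95), Tigit (0.95) and Dennd4a (0.90), and Il2ra by Socs2, Cd81 and Myl12b (0.94 for each). Il4ra was followed by Als2cl (0.94) and Dgkd (0.92), Il10ra by Pld3 (0.92), Cyth4 and Cd3e (0.91 for both), and Il2rg by Lypla2 (0.95), Tmem173 (0.94) and Cd6 (0.92). Il7r was followed by Ramp1 (0.93), Arid4a (0.92) and Ccm2 (0.91), Il18rap by Pgam1 (0.89), Eef1d (0.88) and Ctla2a (0.85), and Il21r by Spg7, Hnrnpab (0.83 for both) and Clns1a (0.82). Among the subunits themselves r was highest between Il2rb and Il10ra (0.87) and lowest between Il4ra and Il18r1 (-0.86).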

How the data were processed

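The authors deposited raw counts of UMIs for each gene in each barcode, from a 10x 5′ kit. The matrix headers name Cell Ranger 3.1.0, the submitters' processing notes Cell Ranger 5.1.0 and STAR, with mm10 (GRCm38). From these counts, cells with 200 to 7000 genes and at most 5% mitochondrial UMIs were kept, the limits of the study, which left 631 to 1436 of 718 to 1695 barcodes per library. Scrublet in scanpy 1.11.5 marked 16, 22, 0 and 5 doublets (meninges and choroid plexus, young before aged), fewer than 0.8% per 1000 barcodes predicts in both aged libraries, so doublets can remain. Cells with no Cd3 UMI (4 to 28) and, from the classes, cells with Cd4 and Cd8 UMIs (16 to 33) were left out.

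UMIs were summed per library and class and scaled to CPM of all genes with Python 3.11.15, numpy 2.4.6, pandas 2.3.3 and scipy 1.17.1, and drawn with matplotlib 3.10.9. Thinning drew 1000 UMIs per cell without replacement (seed 0), leaving out shallower cells, 6 to 38 per library. On simulated counts with known changes the calls by size were tested. Those counts held Poisson error only, so they say nothing of the spread between mice or libraries. Positions came from GENCODE vM21 (GRCm38), promoters from RefSeq. Protein sequences were not analysed here. All 10 members were named, of other pathway genes those past the rule in both tissues in 1 class and the 2 largest in each direction of each list, and up to 3 genes likest each member. Members, lists, gates and rules were chosen with earlier results of these data known. Some genes, and 1 gate that used such a gene, are not reported here. Alternatives changed the filters, classes, pseudocount (1 CPM or none), minimum (none or 50 UMIs) and size (0.58).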

Additional observations from a re-analysis of the deposited data

How the results depend on the processing

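Over the 60 log2 ratios of a subunit with age, 12 alternatives gave 720 values, of which 693 lay within the range that the 2 exact 95% Poisson intervals give the reported ratio, 27 lay outside it and 0 turned a called direction. The 12 higher and 9 lower calls with age became 21 and 10 at a log2 size of 0.58. In cells without a Ccr7 UMI there were 6 higher and 4 lower. Without the minimum of 20 UMIs, 6 of the 12 higher and 7 of the 9 lower calls kept the size there. In cells thinned to 1000 UMIs there were 3 lower, 6 of the 9 keeping the size without that minimum, which fewer UMIs reach. Of the 12 higher calls 7 stayed with thinning, and 11 kept the size without that minimum. The 4 calls of CD8 against CD4 became 2 when 2 UMIs of Cd4 or Cd8 genes were required, 0 at a minimum of 50 UMIs and 13 at 0.58. The 0 calls of neither against CD4 became 1 with thinning, with a pseudocount of 1 CPM, with none (added after seeing the data) and without cells that had UMIs of other cell types, and 3 at 0.58. The 2 calls of choroid plexus against meninges, whose alternatives were added after seeing the data, became 5 with 2 UMIs required, 4 with thinning, 5 with a pseudocount of 1 CPM or none, 9 at 0.58 and 1 without cells that had UMIs of other types. That 1 was neither of the 2 reported pairs. It was Il2rb in young CD4 T cells, at 206 CPM in the meninges and 91.2 CPM in the choroid plexus. The 57 gate calls became 107 at 0.58. A smaller size lets more genes of any kind pass, and the share of all genes past 0.58 is not given. The counts at 0.58 thus show only how the calls shift with the setting. The median share of thinned cells with a UMI, 5.87% over members and profiles, was 13.8% without thinning and 9.57% at 2000 UMIs. Where no reason is named, the cause was not tested. No paired analysis was possible because each group has 1 library.

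Depth limits the rarer subunits most. Il18rap rested on 4 to 50 and Il2ra on 0 to 75 UMIs per profile, and 3 of the 60 age pairs, among them Il2ra in CD8 T cells of both tissues, had too few UMIs to be called.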
